A study of Mus musculus with 15 samples.

Results

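Keratinocyte and cornified envelope genes were read in mammary tissue of nude mice after prolonged BDE-47 exposure. The 34 genes were chosen by name, as markers of the layers of the epidermis and of other stratified epithelium, and stand among 52526 genes in the files. All 34 were found. By layer, they were 5 basal genes, 8 spinous genes, 8 genes of the granular and cornified layers, 4 keratins of appendages and wounds, 5 genes of the desmosome and cell junction, and 4 further genes of stratified epithelium.

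The samples were left 4th mammary tissue, 1 library per mouse, from female athymic mice (Crl:NU-Foxn1nu). BDE-47, a polybrominated diphenyl ether used as a flame retardant, was delivered at low dose for 16 weeks by a pump under the skin, in PEG300 with 1% DMSO, to 7 mice. The 8 vehicle mice carried pumps with PEG300 and 1% DMSO alone. All mice were older than 8 weeks at the start and carry the Foxn1 mutation, which removes the thymus and impairs hair and epidermal differentiation, and some of them had received a xenograft that the labels do not assign to mice. Libraries were 3′ end libraries (QuantSeq 3′ FWD), and values are log2(CPM), reads scaled to the total of each library, with a gene under 1 CPM listed at 0. Depth was 11.97 to 16.51 M reads in vehicle mice and 10.06 to 19.58 M in BDE-47 mice, so that 1 CPM stood for about 10.1 to 19.6 reads. A gene listed at 0 may still be expressed.

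The epidermis renews itself from a basal layer, whose cells carry keratins 5 and 14 and the transcription factor p63. Cells that leave it change to keratins 1 and 10 in the spinous layer and then make filaggrin and loricrin, which fill and stiffen the dead cornified cell. Loricrin, involucrin and small proline-rich proteins are cross-linked into the cornified envelope by transglutaminases. The mammary gland is a skin appendage, and its myoepithelial cells share keratins 5 and 14, p63 and much of the adhesion machinery with the basal epidermis, while keratin 1, filaggrin and loricrin are known as genes of cornifying epithelium. In bulk tissue, fewer cells of a type and less RNA per cell cannot be told apart.

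Promoters are shown for 6 members, because their levels behaved differently over mice. Lor, Flg and Krtdap were read at a steady level in every mouse, Krt10 had a wider spread (SD over mice 0.69), and Krt5 and Dsp varied most (1.98 and 1.97). The sequences are the 250 bases before the RefSeq start on GRCm38, 5′ to 3′ on the strand of the gene, and 19 of the 34 members had such an entry. The Krt10 start lies inside the annotated span of that gene, and the other 5 windows lie outside theirs. Capitals mark TGANTCA, a loose form of the AP-1 site with the middle base left free, and TATAAA, the core of a TATA box. Both were searched on both strands.
Lor (chr3:92083143-92083392, minus strand): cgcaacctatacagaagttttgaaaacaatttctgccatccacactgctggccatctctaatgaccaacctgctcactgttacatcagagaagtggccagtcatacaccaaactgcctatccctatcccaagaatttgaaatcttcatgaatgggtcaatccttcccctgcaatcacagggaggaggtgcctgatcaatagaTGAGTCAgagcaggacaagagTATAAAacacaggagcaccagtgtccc
Flg (chr3:93273296-93273545, plus strand): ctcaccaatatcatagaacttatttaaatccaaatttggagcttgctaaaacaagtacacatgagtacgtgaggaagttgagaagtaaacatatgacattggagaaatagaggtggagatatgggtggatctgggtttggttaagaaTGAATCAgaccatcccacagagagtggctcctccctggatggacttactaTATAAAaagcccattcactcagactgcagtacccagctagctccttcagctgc
Krtdap (chr7:30787655-30787904, plus strand): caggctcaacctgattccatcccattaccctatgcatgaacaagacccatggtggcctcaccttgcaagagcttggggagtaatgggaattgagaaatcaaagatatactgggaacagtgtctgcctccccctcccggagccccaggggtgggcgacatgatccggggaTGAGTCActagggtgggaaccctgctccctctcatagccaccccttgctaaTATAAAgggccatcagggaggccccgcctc
Krt10 (chr11:99389365-99389614, minus strand): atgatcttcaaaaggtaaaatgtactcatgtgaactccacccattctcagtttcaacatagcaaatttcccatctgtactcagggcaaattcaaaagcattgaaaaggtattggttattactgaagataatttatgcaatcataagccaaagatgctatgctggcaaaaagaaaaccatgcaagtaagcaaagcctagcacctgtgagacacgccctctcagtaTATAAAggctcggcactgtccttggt
Krt5 (chr15:101712906-101713155, minus strand): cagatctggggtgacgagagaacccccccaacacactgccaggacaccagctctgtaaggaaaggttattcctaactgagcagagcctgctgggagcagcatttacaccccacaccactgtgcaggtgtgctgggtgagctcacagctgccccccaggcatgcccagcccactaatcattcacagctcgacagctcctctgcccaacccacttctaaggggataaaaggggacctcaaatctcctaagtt
Dsp (chr13:38151044-38151293, plus strand): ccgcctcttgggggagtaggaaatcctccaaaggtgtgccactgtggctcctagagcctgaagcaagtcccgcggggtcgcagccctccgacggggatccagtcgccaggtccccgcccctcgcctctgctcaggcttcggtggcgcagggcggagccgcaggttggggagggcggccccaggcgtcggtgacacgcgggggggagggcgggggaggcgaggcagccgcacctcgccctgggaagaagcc
Lor held TGAGTCA from base 48 and TATAAA from base 27 before the start. Flg held TGAATCA from base 103 and TATAAA from base 53, and Krtdap held TGAGTCA from base 81 and TATAAA from base 30. The middle base was thus A in Flg and G in Lor and Krtdap, and the counts of TGANTCA below take any middle base. Krt10 held TATAAA from base 26 and no AP-1 letters, and the Krt5 and Dsp windows held neither. TGANTCA was in 9 of 17 windows of the spinous, granular and cornified members, for 7 of 13 genes with an entry (Dmkn, Flg, Flg2, Ivl, Krtdap, Lor and Sbsn), and in 0 of 3 windows of basal and junction members, against 6.75% of all windows. Only 3 basal and junction members had a window, too few to set their 0 against 6.75% or against the other layers. Krt1 had no entry. Some windows of Dmkn overlap. Ivl and Sbsn hold these letters as well but were listed at 0 in nearly all mice. TATAAA was in 6 of the 17 windows (Flg, Ivl, Krt10, Krtdap, Lor and Tgm3), against 12.4% of all windows. These are matches of letters in a short window and not measured binding.

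Of the 34 members, 29 were above 1 CPM in at least 1 mouse and 16 in all 15. The 5 listed at 0 in every mouse were Dsg1a and Dsc1, desmosomal cadherins of the upper epidermis, Ivl (involucrin), Tgm3 (a transglutaminase) and Krt16, a keratin of wounded skin. Sbsn (suprabasin) was above 1 CPM in a single mouse, BDE-47 replicate 4, at 2.45. At the other end, Ly6d, a surface protein of keratinocytes that other epithelia and lymphoid cells also make, reached 9.71. The heat map of the members shows these levels for each mouse.

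**Figure D1:**
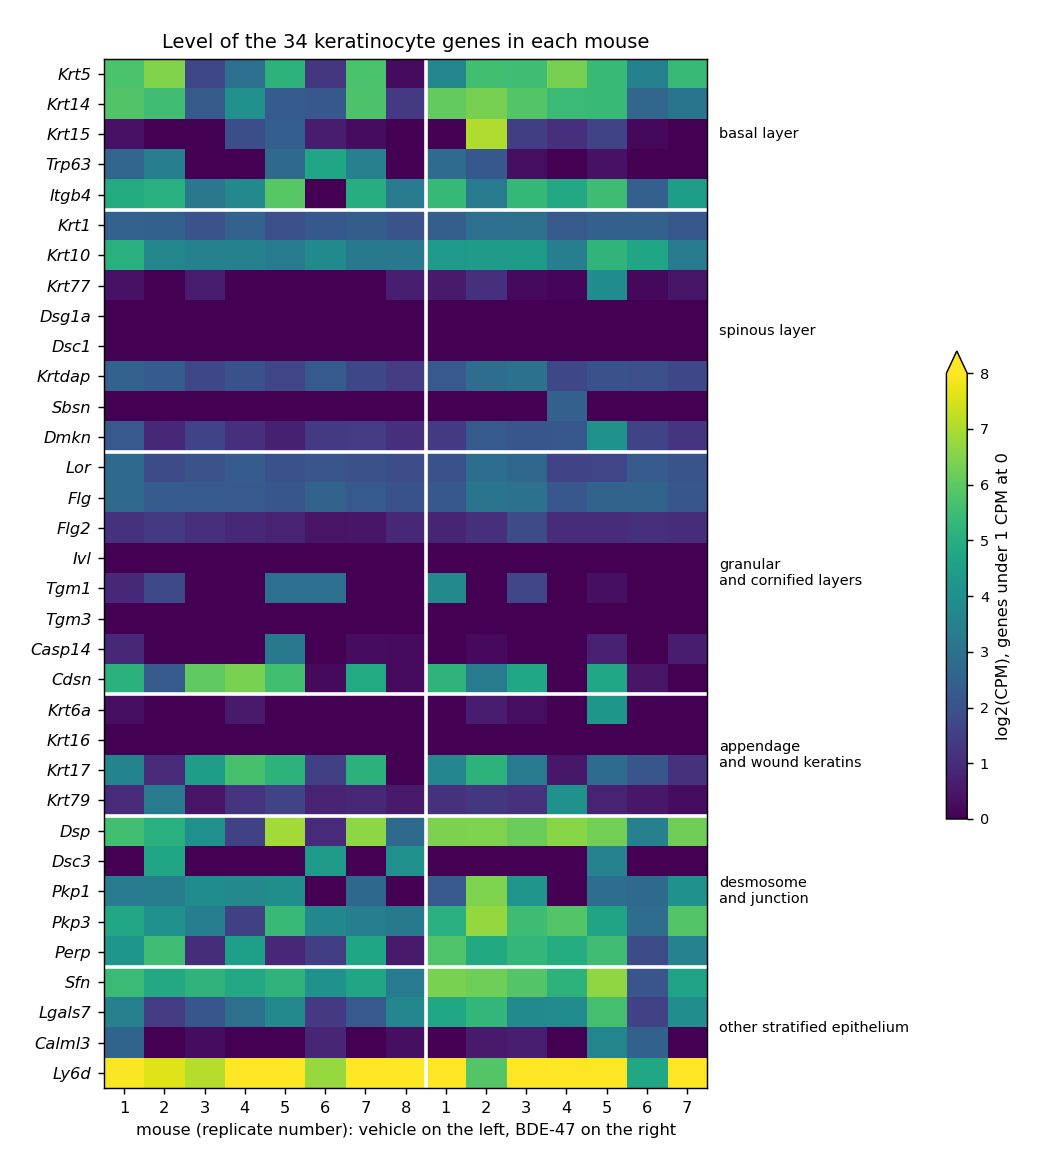
Level of each of the 34 members (rows, by layer) in each mouse (columns, 8 vehicle mice then 7 BDE-47 mice), as log2(CPM) with genes under 1 CPM at 0 and values above 8 in the colour of 8. Krt1, Krtdap, Lor and Flg have nearly the same colour across all 15 mice, whereas Krt5, Krt14, Dsp, Perp and Cdsn change from mouse to mouse, and 5 rows are at 0 throughout.

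A group of 3 mice stood apart in cell content before any comparison of members. Vehicle replicates 6 and 8 had all 8 B cell markers above 1 CPM, with Cd79a at 5.81 and 5.35, and Cd79a was listed at 0 in the other 13 mice. BDE-47 replicate 6 had a summed level of 102578 CPM over 10 skeletal muscle genes, against 50 to 215 CPM in the vehicle mice. The same mice were low in the luminal keratin Krt18, at 3.00, 4.40 and 6.12, whereas the other 12 mice were at 7.60 to 9.59. Where leaving them out turned the sign of a difference given below or moved it by over 1.5 times, the value without them stands beside it.

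No member passed a test across all genes between BDE-47 and vehicle, which does not show that none differed. limma called 0 of the 26 members that were above 1 CPM in at least 7 mice, and 0 of 9511 genes (0%), at an adjusted p under 0.05. At an unadjusted limma p under 0.05 there were 2 members (Dsp and Pkp3), against 4.66% of all genes tested. The exact permutation test over mice, two-sided, gave an unadjusted p under 0.05 for 3 of the 26 members (Dmkn, Pkp3 and Lgals7), against 4.42% of all genes, and an adjusted p under 0.05 for 0 members and 0% of genes.

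Without a test, 22 of the 29 members had a higher mean with BDE-47, against 49.3% of the 16314 genes above 1 CPM in any mouse. The median difference over these 29 was 0.55 on the log2 scale, against -0.015 over all 16314 genes. Past 2-fold, 6 members were higher (Krt5, Krt14, Dsp, Pkp3, Perp and Lgals7), against 9.97% of genes, and 3 were lower (Trp63, Cdsn and Dsc3), against 10.5%. Without the 3 mice with B cell or muscle markers, 23 members were higher (against 48.2% of all genes), and the median over the members fell to 0.27, against 0.000 over all genes. Past 2-fold there were again 6 and 3, with Krt15 in place of Krt5 among the higher (11.1% of genes) and Krt17 in place of Dsc3 among the lower (10.4%). The members share mice and move together in part, so that these counts are not independent observations. The plot of named genes shows the values behind them.

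**Figure D2:**
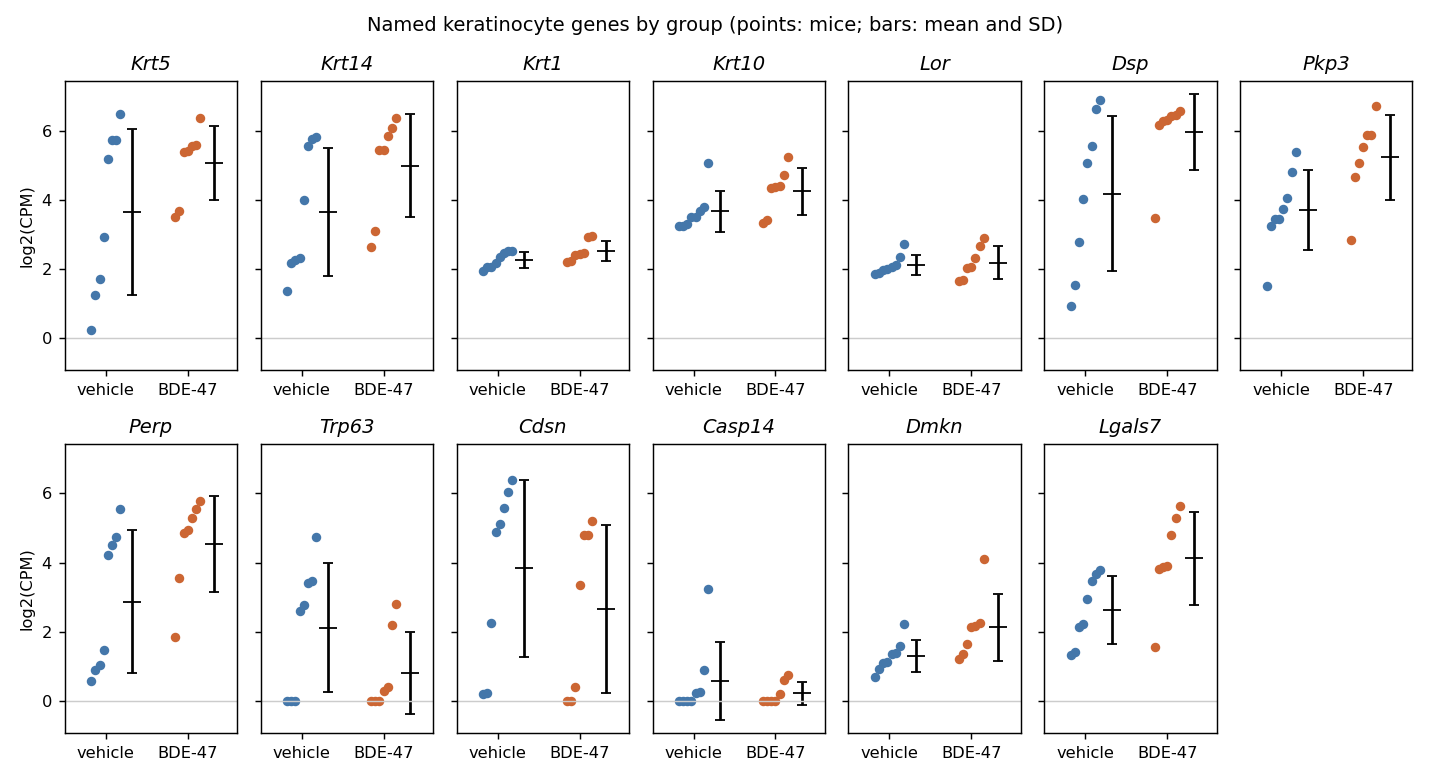
Level of 13 members in each mouse as log2(CPM), by group (points, 8 vehicle and 7 BDE-47 mice), with the mean and SD beside the points. The groups overlap in every panel, and the vertical spread is narrow for Krt1 and Lor (SD over all mice 0.29 and 0.37) and wide for Krt5 and Dsp (1.98 and 1.97).

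Basal keratins were higher in the BDE-47 mice on average, by less than the spread between mice. Krt5 (chr15:101707069-101712905), the type II keratin of basal cells, had a level of 0.23 in the lowest vehicle mouse, 4.05 at the median and 6.47 in the highest, and of 3.50, 5.40 and 6.36 in the BDE-47 mice. Vehicle replicates 3, 4, 6 and 8 lay below every BDE-47 mouse, and the other 4 vehicle mice lay within the BDE-47 range or above it. The mean was 3.65 ± 2.41 (SD, n = 8) with vehicle and 5.07 ± 1.06 (SD, n = 7) with BDE-47. These means were 1.42 apart on the log2 scale (exact permutation p = 0.172, limma standard error 0.87 and adjusted p = 0.982). Without the 3 mice with B cell or muscle markers the difference was 0.71.

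Krt14 (chr11:100203162-100207510), its type I partner, ran from 1.37 through a median of 3.17 to 5.83 with vehicle and from 2.64 through 5.44 to 6.37 with BDE-47. The groups overlapped, and 5 vehicle mice and 2 BDE-47 mice were at 4.01 or lower. On the log2 scale the means were 1.32 apart (exact permutation p = 0.149), and 1.09 without the 3 mice. Itgb4, the integrin of the hemidesmosome, differed by 0.59 (exact permutation p = 0.516) and by 0.17 without the 3 mice, and it was listed at 0 in a single mouse, vehicle replicate 6.

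Trp63 (chr16:25683763-25892088), which encodes p63, went the other way. It was above 1 CPM in 5 vehicle and 4 BDE-47 mice, and its highest level was 4.73 in vehicle replicate 6 and 2.80 in BDE-47 replicate 1. Its mean differed by -1.31 on the log2 scale (exact permutation p = 0.138). Krt15, a keratin of basal and bulge cells, was at most 2.38 in 14 mice and at 7.04 in BDE-47 replicate 2.

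Among the spinous genes, Krt1 and Krtdap were steady, and the other 4 that were above 1 CPM in some mouse varied more. Krt1 (chr15:101845426-101850786) had a level of 1.95 in the lowest vehicle mouse, 2.28 at the median and 2.52 in the highest, and of 2.21, 2.44 and 2.96 in the BDE-47 mice. The ranges overlapped over most of their width, and BDE-47 replicates 2 and 3 lay above every vehicle mouse. The log2 difference was 0.26 (exact permutation p = 0.0844).

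Krt10 (chr11:99385254-99397449), the partner of keratin 1, was at 3.24, 3.51 and 5.07 (lowest, median and highest) with vehicle and at 3.32, 4.37 and 5.23 with BDE-47. Vehicle replicate 1 stood among the high BDE-47 mice, and the other 7 vehicle mice were at 3.80 or lower. Krt10 differed by 0.59 on the log2 scale (exact permutation p = 0.101), and leaving out vehicle replicate 1 gave 0.79 (exact permutation p = 0.0152, unadjusted). Krtdap, a secreted peptide of differentiating keratinocytes, differed by 0.26 (exact permutation p = 0.278).

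Dmkn (chr7:30763756-30781066), dermokine, is secreted by the spinous and granular layers. Its level was 0.69, 1.24 and 2.23 (lowest, median and highest) with vehicle and 1.21, 2.15 and 4.10 with BDE-47. The groups overlapped, and BDE-47 replicate 5 stood alone at the top. Dmkn differed by 0.83 on the log2 scale (exact permutation p = 0.0281, adjusted over all genes 0.998), and it was 0.50 without BDE-47 replicate 5 (exact permutation p = 0.0709). Without the 3 mice it was 0.89 (exact permutation p = 0.0736), so that it no longer had an unadjusted p under 0.05. Krt77, a suprabasal keratin, was above 1 CPM in all 7 BDE-47 mice and in 3 of 8 vehicle mice, at 1.12 or lower in all but BDE-47 replicate 5, where it was at 3.90 (exact permutation p = 0.0794).

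Among the granular and cornified genes, loricrin and filaggrin differed little between groups, and corneodesmosin was lower on average with BDE-47 by over 2-fold. Lor (chr3:92080271-92083142), which encodes loricrin, was at 1.87, 2.03 and 2.73 (lowest, median and highest) with vehicle and at 1.65, 2.07 and 2.89 with BDE-47. Both the lowest and the highest mouse were BDE-47 mice. The log2 difference was 0.07 (exact permutation p = 0.749), and without the 3 mice it was 0.00.

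Flg (chr3:93273546-93293689), filaggrin, ran from 2.03 to 2.78 with vehicle and from 2.13 to 3.09 with BDE-47, and Flg2 from 0.43 to 1.36 and from 0.84 to 1.84. Their log2 differences were 0.20 and 0.24 (exact permutation p = 0.24 and 0.174). The neighbour of both in the epidermal differentiation complex, Ivl, was listed at 0 in all mice.

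The late genes Cdsn, Casp14 and Tgm1 did not share this steadiness. Cdsn (chr17:35543101-35557180), corneodesmosin of the cornified layer, was at 0.21, 5.00 and 6.40 (lowest, median and highest) with vehicle and at 0, 3.34 and 5.20 with BDE-47. It was at 0.41 or lower in vehicle replicates 6 and 8 and BDE-47 replicates 4, 6 and 7, and between 2.26 and 6.40 in the other 10 mice. The log2 difference was -1.19 (exact permutation p = 0.36) and -2.02 without the 3 mice with B cell or muscle markers (exact permutation p = 0.117).

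Casp14 (chr10:78711995-78718347), the caspase that processes filaggrin, was above 1 CPM in 4 vehicle and 3 BDE-47 mice, with 3.24 in vehicle replicate 5 and at most 0.91 elsewhere. Its log2 difference was -0.36 (exact permutation p = 0.601) and 0.02 without vehicle replicate 5. Tgm1, the transglutaminase that builds the envelope, was above 1 CPM in 7 mice and highest in BDE-47 replicate 1, at 3.77. Its log2 difference was -0.24 (exact permutation p = 0.75) and 0.03 without the 3 mice. It fell short of 1 CPM in the other 8 mice, so that filaggrin and loricrin were read in mice where the enzyme was listed at 0.

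Genes of the desmosome and junction held the largest differences of mean log2(CPM) over all 15 mice. Without the 3 mice with B cell or muscle markers, those of Cdsn (-2.02) and Lgals7 (1.88) were larger. Dsp (chr13:38151294-38198577), desmoplakin, which ties keratins to the desmosome, was at 0.95, 4.55 and 6.88 (lowest, median and highest) with vehicle and at 3.48, 6.31 and 6.58 with BDE-47. Of the 7 BDE-47 mice, 6 lay between 6.17 and 6.58, the remaining one was the mouse with muscle markers, and 2 vehicle mice were higher than all of them. The log2 difference was 1.77 (exact permutation p = 0.083, limma standard error 0.77, unadjusted p = 0.0256 and adjusted p = 0.982), and it was 1.41 without the 3 mice.

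Pkp3 (chr7:141078229-141090511), plakophilin 3, was at 1.52, 3.60 and 5.38 with vehicle and at 2.85, 5.53 and 6.72 with BDE-47. The groups overlapped, with 4 BDE-47 mice above every vehicle mouse and 1 vehicle mouse below every BDE-47 mouse. Pkp3 differed by 1.52 on the log2 scale (exact permutation p = 0.0287, adjusted over all genes 0.998) and 1.84 without the 3 mice. With the replicate number as a block it was 1.45 (exact sign-flip permutation p = 0.109).

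Perp (chr10:18845071-18857073), a desmosome protein and p63 target, was at 0.59, 2.84 and 5.56 with vehicle and at 1.86, 4.94 and 5.79 with BDE-47. On the log2 scale it differed by 1.67 (exact permutation p = 0.0942). In all, 4 vehicle mice were at 1.47 or lower, as against no BDE-47 mouse. Pkp1, plakophilin 1, was at 0 in 3 mice and differed by 0.60 (exact permutation p = 0.549), which turned to -0.19 without the 3 mice with B cell or muscle markers. Dsc3, a basal desmocollin, was above 1 CPM in 4 mice, 3 of them vehicle mice, and its log2 difference of -1.13 (exact permutation p = 0.303) was -0.20 without those mice.

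Of the other genes of stratified epithelium, Lgals7 (chr7:28863796-28866285), galectin 7, had the clearest separation. It was at 1.33, 2.60 and 3.78 with vehicle and at 1.57, 3.91 and 5.63 with BDE-47. Of the 7 BDE-47 mice, 6 were higher than all 8 vehicle mice, and the remaining one was the mouse with muscle markers. Lgals7 differed by 1.50 on the log2 scale (exact permutation p = 0.0298, adjusted over all genes 0.998) and 1.88 without the 3 mice (exact permutation p = 0.00216, unadjusted).

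Sfn (stratifin, 14-3-3 sigma) differed by 0.59 (exact permutation p = 0.365) and Calml3 by 0.55 (exact permutation p = 0.354), or 0.34 without the 3 mice. Ly6d differed by -0.22 (exact permutation p = 0.761), which turned to 0.09 without them. Dmkn and Lgals7 were named after their values were seen. Wound and appendage keratins did not move together, as Krt6a was above 1 CPM in 5 mice with 4.23 in BDE-47 replicate 5, Krt17 differed by -0.64 (exact permutation p = 0.527) and Krt79 by 0.09 (exact permutation p = 0.829). These were -1.40 and 0.05 without the 3 mice.

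Luminal genes of the mammary gland, which are no members, also had higher means with BDE-47. This held for 8 of 8 (against 49.3% of all genes), with a median log2 difference of 1.11. It held for 8 of 8 without the 3 mice (against 48.2%), where the median was 0.54. Their summed level was 33.8 to 2005 CPM with vehicle and 126 to 2746 CPM with BDE-47, and vehicle replicate 8 and BDE-47 replicate 6 were among the 3 lowest mice in the luminal, basal and junction sums. Those with the smallest limma p were Krt18 (log2 difference 1.12, exact permutation p = 0.296) and Krt19 (1.14, exact permutation p = 0.299). Their differences were 0.27 and 0.39 without the 3 mice. Whether epithelial content accounts for the differences of the basal and junction members was not tested. The plot of summed levels sets the lists side by side.

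**Figure D3:**
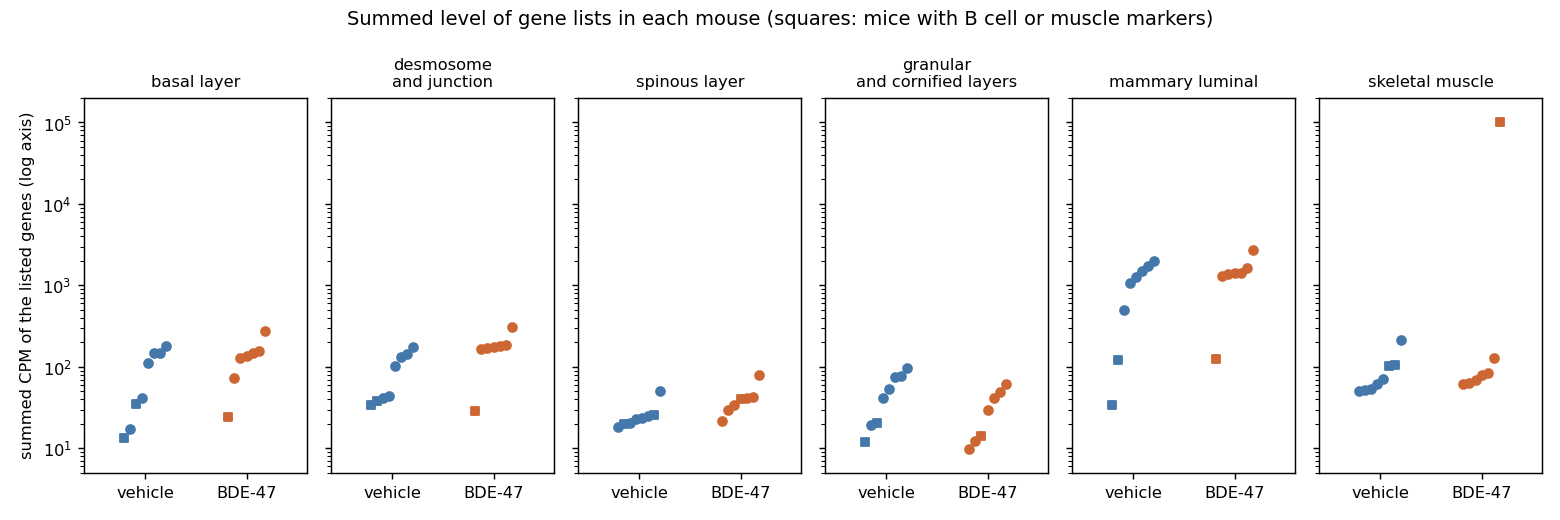
Summed CPM (log axis) of the basal, junction, spinous, and granular and cornified members, and of 8 mammary luminal and 10 skeletal muscle genes, in each mouse by group, with squares for the 3 mice with B cell or muscle markers. The basal sum spans 13.4 to 277 CPM and the spinous sum 18.5 to 79.1 CPM over all mice, and the squares lie low in the basal, junction and luminal panels, whereas in the spinous panel they stand at 20.1, 25.8 and 40 CPM.

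The spread between mice ranged widely over the layers. Among members above 1 CPM in all 15 mice, the SD over mice was 1.77 and 1.98 for the 2 basal genes, 1.39 to 1.97 for the 3 junction genes, 0.29 to 0.83 for the 4 spinous genes and 0.33 to 0.37 for the 3 granular and cornified genes. The median over all 2579 genes above 1 CPM in all mice was 1.00. Counted from the lowest SD, Krt1 stood at place 5 of these genes, Flg at 12, Lor at 20 and Krtdap at 74, while Krt14 stood at 2388 and Krt5 at 2484. Keeping genes above 1 CPM in all mice favours steady ones. It leaves out Cdsn, with an SD of 2.48 the widest of the members, Tgm1 (1.32), Krt77 (0.99) and Casp14 (0.84), so that the differentiated layers hold variable genes too. This is a description, and the spread of the layers was not tested against each other.

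In direction, 49.3% of all genes above 1 CPM in any mouse had a higher mean with BDE-47. Beside that share, 4 of 5 basal members had a higher mean (median log2 difference 0.94), 6 of 6 spinous members above 1 CPM in some mouse (0.47) and 3 of 6 granular and cornified members (-0.09). The medians were 0.71, 0.43 and 0.02 without the 3 mice. The differences between layers were not tested.

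Such steadiness was rare at this level. Of 6071 genes with a mean level of 1 to 3.5, only 47 (0.774%) were above 1 CPM in all 15 mice, and the median gene was above it in 9 mice with an SD of 1.95. Among the 13 members in that range, 7 were above 1 CPM in all mice. Of the 47, 6 had an SD under 0.5, and 4 of those were members: Krt1 (0.29), Flg (0.33), Lor (0.37) and Krtdap (0.46). The other two were Calm4, a calmodulin-like gene of the epidermis (0.34), and BC100530, a stefin (0.47). Next in order was Asprv1 (0.58), a protease that processes filaggrin. The limits of 1, 3.5 and 0.5 were set after the values were seen. Whether these steady low levels come from the mammary tissue, from skin in the sample or from reads carried over between libraries was not tested.

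The steady genes rested on few reads. Krt1 had 50 to 112 reads in a mouse, Flg 46 to 126, Lor 41 to 109 and Krtdap 32 to 113. Counting error alone, with every read taken as independent, would give an SD of 0.17 for Krt1 and Flg, 0.18 for Lor and 0.19 for Krtdap. Other technical spread was not measured. For Krt5, counting error would give 0.14, against a measured SD of 1.98. limma borrows its spread from genes of the same level, so that the standard error it gave Krt1 was 0.93, and the exact test is the closer measure for these genes.

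**Figure D4:**
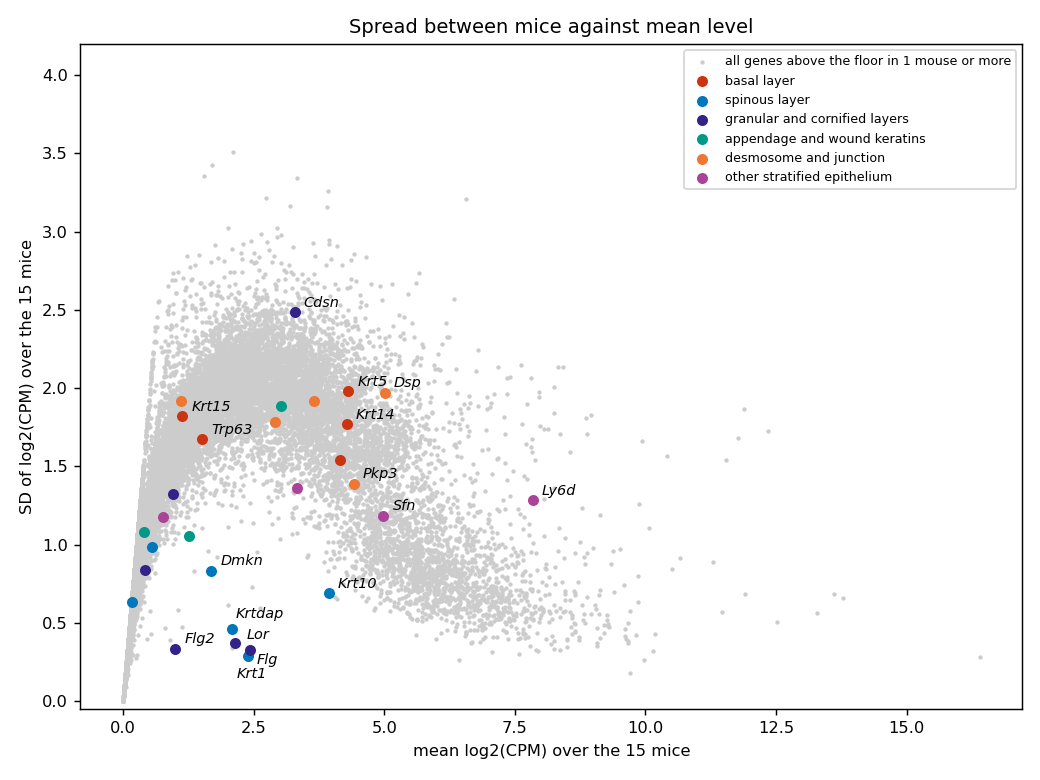
SD of log2(CPM) over the 15 mice against mean log2(CPM), for all genes above 1 CPM in at least 1 mouse (grey) and for the members (coloured by layer). Krt1, Flg, Lor and Krtdap lie below the cloud of genes of the same mean, with an SD of 0.29 to 0.46, and Krt5, Krt14, Dsp and Cdsn lie within it.

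The 4 steady members moved together within their narrow range. Pearson's r between pairs of them over the 15 mice was 0.69 to 0.89, a description with no test because the genes were picked for their low spread. Their mean level was highest in BDE-47 replicates 2 and 3, at 2.94 and 2.92, then in vehicle replicate 1, at 2.64, and lowest in vehicle replicate 8, at 1.85. The 10 other genes most like this mean included Lce1d (r = 0.82), Lce1b (0.82) and Calm4 (0.78), genes of late epidermal differentiation, beside Dopey1 (0.84) and Igfals (0.79).

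Likeness was also taken to the mean of all 16 spinous, granular and cornified members, which ran from 0.86 in vehicle replicate 8 to 1.80 in BDE-47 replicate 5. The 10 nearest genes outside the members were Mir99ahg (r = 0.90), Zfp276 (0.88), Alpl (0.86), Ntn1 (0.84), 2810402E24Rik (0.82), 0610009B22Rik (0.81), Nradd (0.81), Gm20219 (0.80), Prmt5 (0.79) and Cdyl (0.79). None of these is a marker on the epidermal lists. The 16 genes did not form 1 pattern. Of them, 4 were at 0 in every mouse and add nothing to the variation of the mean. Cdsn had the widest SD (2.48), and the mice with Cdsn at 0.41 or lower had the lowest means, 0.86 to 1.11. Which genes set this mean was not tested.

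Covariation was tested for 12 pairs of genes over the 15 mice, with a permutation test of 100000 resamples and adjustment over the 12. The basal partners Krt5 and Krt14 gave Pearson's r = 0.74 (permutation p = 0.00165, adjusted 0.0198) and Spearman's rho = 0.70 (permutation p = 0.00462, adjusted 0.0554). Within groups, r was 0.83 in the vehicle mice (exact permutation, adjusted p = 0.181) and 0.36 in the BDE-47 mice (exact permutation, adjusted p = 0.826). Without the 2 mice farthest from the median of Krt5, r was 0.57 (permutation, adjusted p = 0.116), and without the 3 mice with B cell or muscle markers it was 0.52. The relation thus rested in part on mice low in both genes.

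The spinous partners Krt1 and Krt10 gave r = 0.57 (permutation p = 0.0271, adjusted 0.0813) and rho = 0.61 (permutation p = 0.0174, adjusted 0.104), with 0.51 in the vehicle and 0.42 in the BDE-47 mice. Across layers, r was 0.45 for Krt14 and Krt10 and 0.43 for Krt5 and Krt1 (permutation, adjusted p = 0.188 for each), or 0.56 and 0.26 without the 3 mice. It was 0.27 for Krt14 and Lor (permutation, adjusted p = 0.448) and 0.40 for Krt10 and Lor (permutation, adjusted p = 0.205). Outside the tested pairs, Krt14 gave r = 0.73 with Krt1, 0.63 with Krtdap, 0.48 with Flg and 0.45 with Dmkn over all mice. Krt5 gave 0.36 with Krtdap, 0.29 with Flg, 0.29 with Dmkn, 0.23 with Krt10 and 0.09 with Lor. These further values are a description with no test. Krt14 and Dsp gave 0.60 (permutation, adjusted p = 0.0696), 0.40 without the 2 mice farthest from the median of Krt14 and 0.30 without the 3 mice (permutation, adjusted p = 0.452). Krt10 and Dsp gave 0.16 (permutation, adjusted p = 0.63). A p that misses the threshold does not show that 2 genes are unrelated, and with 15 mice weak relations could not be detected.

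Markers of the duct and of muscle were set beside the same keratins. Krt8, a luminal keratin, was at 1.13 and 0.99 in vehicle replicate 6 and BDE-47 replicate 6 and between 4.73 and 8.67 in the other 13 mice, so the mice fall apart in it. Over all 15, Krt14 with Krt8 gave r = 0.59 (permutation p = 0.0134, adjusted 0.0696) and rho = 0.45 (permutation, adjusted p = 0.185). Its r was 0.50 within the vehicle mice, 0.70 within the BDE-47 mice (exact permutation, adjusted p = 0.371 and 0.46), 0.52 in the 13 mice without those 2 (permutation p = 0.0705, adjusted over the 2 Krt8 pairs 0.141) and 0.30 in the 12 mice without B cell or muscle markers (permutation, adjusted p = 0.452). Krt10 with Krt8 gave 0.01 over all 15 mice (permutation, adjusted p = 0.983), 0.42 in the 13 mice (permutation p = 0.144, adjusted 0.144) and 0.34 in the 12 (permutation, adjusted p = 0.452).

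Krt14 with the myoepithelial and smooth muscle actin Acta2 gave 0.23 over all 15 mice (permutation, adjusted p = 0.489), which turned to -0.46 in the 12 mice (permutation, adjusted p = 0.338). The choice of the 13 mice was made after the data were seen.

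Krt10 with Acta1, the actin of skeletal muscle, gave r = 0.44 over all 15 mice (permutation p = 0.1, adjusted 0.188). Its rho was 0.56 (permutation p = 0.0337, adjusted 0.135). BDE-47 replicate 6 weighs on this r, as Acta1 was at 15.06 there against 4.28 to 6.16 in the other 14 mice. In the 12 mice without B cell or muscle markers, r was 0.82 (permutation p = 0.00125, adjusted 0.015) and rho was 0.71 (permutation p = 0.0129, adjusted 0.155). Leaving out vehicle replicate 1 and BDE-47 replicate 5 as well, r was 0.73 over 10 mice. Within the vehicle mice r was 0.75 and within the BDE-47 mice, replicate 6 included, 0.38, neither with an adjusted p under 0.05 (exact permutation, 0.181 and 0.826). The choice of the 12 mice was made after the data were seen.

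**Figure D5:**
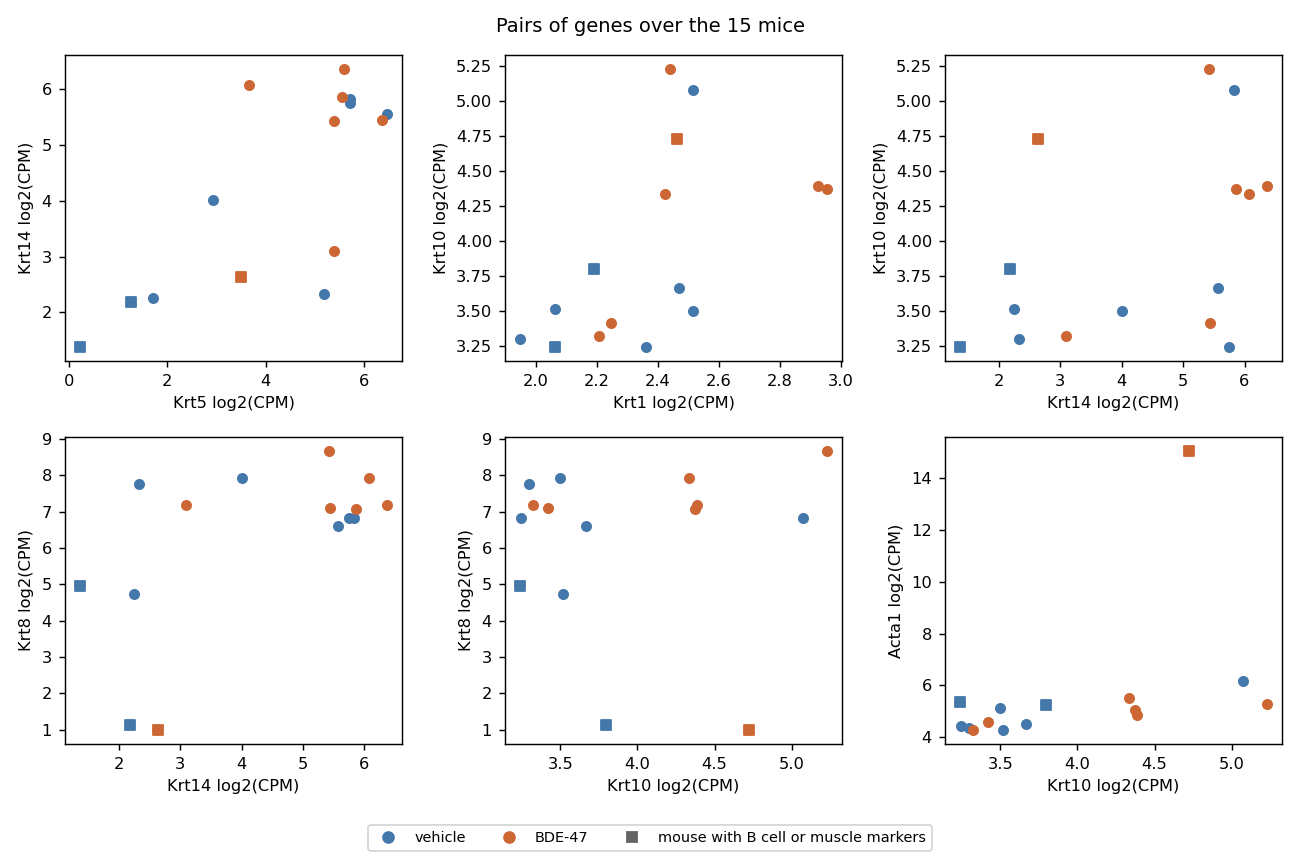
Level of 6 pairs of genes over the 15 mice, each axis in log2(CPM), in blue for vehicle and orange for BDE-47, with squares for the 3 mice with B cell or muscle markers. Krt5 and Krt14 lie along a line (r = 0.74), the Krt8 panels hold 2 squares near 1 far below the other mice, and the Acta1 panel holds 1 square at 15.06.

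Further genes of the same programmes were counted from wider lists. Of 35 other genes of epidermal differentiation, 24 were above 1 CPM in some mouse, 4 in all mice (Lce1a1, Sprr1a, Asprv1 and Spink5), and 11 in none, among them Krt2 and Foxn1, the gene mutated in these mice. limma called 0 of the 11 tested, adjusted or unadjusted, and the exact permutation test gave an unadjusted p under 0.05 for 2 of the 24, Elovl4 and Lce1m (p = 0.0256 and 0.0443), which were above 1 CPM in 4 and 5 mice. Without the 3 mice neither had (exact permutation p = 0.182 and 0.106), and the highest Elovl4 level, 2.20, was that of the mouse with muscle markers. At an unadjusted exact permutation p under 0.05 stood 4.42% of genes above 1 CPM in at least 7 mice, a filter that Elovl4 and Lce1m did not pass. In direction, 19 of the 24 had a higher mean with BDE-47, against 49.3% of all genes above 1 CPM in any mouse. Without the 3 mice it was 17, against 48.2%. The smallest limma p were those of Asprv1 (log2 difference 0.42, exact permutation p = 0.17) and Grhl1, a transcription factor of the epidermal barrier (0.55, exact permutation p = 0.672, and 0.12 without the 3 mice). Sprr1a, a small proline-rich envelope protein, ran from 0.43 to 5.92, whereas the late envelope gene Lce1a1 stayed between 0.04 and 1.37.

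Of 17 further basal and adhesion genes, 16 were above 1 CPM in some mouse and 15 of those had a higher mean with BDE-47, 5 of them past 2-fold. Over all genes above 1 CPM in any mouse these shares were 49.3% and 9.97%. limma called 0 of the 12 tested, adjusted or unadjusted, and the exact permutation test gave no unadjusted p under 0.05. The smallest limma p were those of Col17a1, a collagen of the hemidesmosome (log2 difference 1.75, exact permutation p = 0.0786), and Cdh1, E-cadherin (1.10, exact permutation p = 0.235, and 0.57 without the 3 mice). Both are also made by glandular epithelium.

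Markers of other skin structures were mostly listed at 0. Of 14 hair shaft and inner root sheath genes found, 11 were listed at 0 in every mouse, and their summed level was 0 to 9.36 CPM with vehicle and 0 to 3.66 CPM with BDE-47, led by Tchh, trichohyalin of the inner root sheath. Tchh was above 1 CPM in 10 of 15 mice, at 3.23 in vehicle replicate 8 and at 0.58 or lower in the others, and Krt25 was above it in 3 mice. Of 6 sebaceous gland genes, 5 were at 0 in every mouse and Scd3 was at 1.00 in a single vehicle mouse. Of 5 melanocyte genes, Tyr and Tyrp1 were at 0 throughout, and Pmel and Mlana reached 3.18 and 2.53 in single mice. Whether skin was part of the dissected tissue was not tested.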

How the data were processed

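Mammary tissue RNA of 15 mice was sequenced with QuantSeq 3′ FWD. According to the submitters' processing notes, reads were mapped with STAR 2.5.3a to GRCm38. The counting strand is not given in the sources used here. The authors deposited 1 table of log2(CPM) per mouse, in which every gene under 1 CPM stands at 0. Both the log2 scale and this floor show in the numbers themselves, and tests planned for CPM were run on these values as given. Depth was recovered from the spacing of low CPM values, which came out as whole reads, within 0.1 of a read, for 100% of those under 50 CPM. Of 52636 entries, 110 with a repeated name and the lower mean were dropped.

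Groups came from the treatment labels. limma 3.58.1 in R 4.3.3 (empirical Bayes, prior variance following a trend with level, Benjamini-Hochberg adjustment) was run on 9511 genes above 1 CPM in at least 7 mice, and exact permutation tests ran over all 6435 splits of the mice. The xenograft covariate of the study is not in the labels and was not used. The members, lists and thresholds were chosen with earlier results of these data known. Named genes were Krt5, Krt14, Krt1, Krt10, Lor, the 3 members with the smallest limma p in each direction, 2 genes for each further list and the 10 genes nearest in pattern. Alternatives were pseudocounts of 1 and 0.1, no filter, no trend, median-of-ratios size factors, the ratio of mean CPM, a replicate block and each mouse left out. Nothing in the labels gives separate litters or batches. Promoters and coordinates are from RefSeq on GRCm38.p6, where all 34 members were matched by symbol. Reads of close paralogs (Krt14, Krt16 and Krt17, the copies of Krt6a, and the Dsg1 copies) and of genes overlapping Flg, Itgb4, Trp63 or Sbsn may be shared. Python 3.11.15, numpy 2.4.6, pandas 2.3.3 and matplotlib 3.10.9 were used.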

Additional observations from a re-analysis of the deposited data

Results flagged for a closer look

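In 14 of 57 combinations of a member and a group, 1 mouse lay far from the others of its group by Dixon's criterion. The criterion is set to flag 1 in 20 by chance, and the share over all genes is not given here. Whether such flags are particular to the members was not tested. Of the 14, 4 were BDE-47 replicate 5, at 3.90 for Krt77, 4.10 for Dmkn, 4.23 for Krt6a and 3.56 for Dsc3, against group medians of 0.45, 2.15, 0 and 0. BDE-47 replicate 4 was at 2.45 for Sbsn and 4.07 for Krt79, BDE-47 replicate 2 at 7.04 for Krt15, BDE-47 replicate 3 at 1.84 for Flg2, and BDE-47 replicate 6, the mouse with muscle markers, at 3.48 for Dsp. Among vehicle mice, replicate 1 was at 5.07 for Krt10 and 2.58 for Calml3, replicate 2 at 3.29 for Krt79, replicate 5 at 3.24 for Casp14, and replicate 6, a mouse with B cell markers, at 0.00 for Itgb4. Many of these groups hold values at the floor, where a single mouse above 1 CPM is flagged.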

How the results depend on the processing

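Members called by limma stayed at 0 under every alternative run, including the 3 mice with B cell or muscle markers left out, where 2 genes of all those tested were called. Members with an unadjusted limma p under 0.05 were 2, 1 with the replicate block, and 0 to 5 with a mouse left out, 0 without vehicle replicate 4 and 5 without BDE-47 replicate 6. Members past 2-fold higher were 6, 10 with log2(CPM + 0.1), and 4 to 8 with a mouse left out. Members past 2-fold lower were 3, 1 to 4 with a mouse left out, the 1 without vehicle replicate 6. The count of members higher with BDE-47 stayed at 20 to 24. In the main setting the shares of all genes were 4.66% for the unadjusted limma p, 9.97% and 10.5% past 2-fold higher and lower, and 49.3% for a higher mean. For a pseudocount, a block or a single mouse left out, the shares over all genes are not given here. A change of these counts can therefore not be read as particular to the members. The 1 pair of genes with an adjusted p under 0.05 became 0 without the 2 mice farthest from the median, 0 within the vehicle mice and 0 within the BDE-47 mice. Without the 3 mice it was 1 again, but another pair, Krt10 and Acta1.

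The difference of Lor ran from -0.05 to 0.15 with a mouse left out, and was below 0 without BDE-47 replicate 2 (-0.05) or 3 (-0.02). That of Casp14 ran from -0.44 to 0.02. As the log2 ratio of the mean CPM, Krt5 differed by 0.42, Krt14 by 0.89, Dsp by 0.83 and Perp by 1.00. In the main setting these were 1.42, 1.32, 1.77 and 1.67. By the same ratio Pkp3 differed by 1.51, Lgals7 by 1.64, Dmkn by 1.10 and Trp63 by -1.92, none of them smaller than the main value by over 0.01. The unadjusted exact permutation p of Pkp3, Dmkn and Lgals7 was above 0.05 without some single mice, and that of Krt1, Krt10, Dsp and Perp fell below it without others. With the replicate block Dmkn differed by 0.80 (exact sign-flip permutation p = 0.156). Lgals7 differed by 1.65 with it (exact sign-flip permutation p = 0.0156, unadjusted). The correlation of Krt10 and Krt8 was 0.01 in all mice and turned to -0.29 without the 2 farthest mice, -0.02 within vehicle and -0.13 within BDE-47. That of Krt10 and Dsp turned to -0.33 within BDE-47, and that of Krt14 and Acta2 from 0.23 to -0.10 without the 2 farthest mice and -0.46 without the 3 mice. The cause was not tested. Omitting the 3 mice was chosen after seeing the data.

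The labels number mice 1 to 7 in both groups. Deviations of mice with the same number correlated at -0.02 to 0.05, with 0 of 7 pairs over 0.1, so the block was not used as the main design. Of the 7 BDE-47 mice, 4 correlated best with their own number, a hint of pairing from the data that the labels do not give. The block leaves out vehicle replicate 8, which has no partner, and with it the difference of Pkp3 was 1.45 (exact sign-flip permutation p = 0.109). Leaving out vehicle replicate 8 without a block also gave 1.45 (exact permutation p = 0.0472). The floor limits members near 1 CPM.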

Other observations

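With BDE-47 replicate 6 left out, a setting chosen after seeing the data, 9 of 6040 genes with a mean level of 1 to 3.5 were above 1 CPM in all 14 mice with an SD under 0.5. They were Krt1 (0.30), Flg (0.34), Calm4 (0.35), Cst6 (0.35), Lor (0.38), BC100530 (0.48) and Krtdap (0.48), and the fast skeletal muscle genes Myh4 (0.48) and Tnnt3 (0.49). Cst6 encodes cystatin M/E, a protease inhibitor of the cornifying epidermis. The SD of the other 8 listed muscle genes in these mice was 0.56 to 0.97.

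In BDE-47 replicate 6 Myh4 was at 13.82 and Tnnt3 at 12.89, whereas their medians in the other 14 mice were 3.01 and 2.42. Acta1 was at 4.28 to 6.16 in those mice. Whether reads carried over between libraries add to the low muscle and epidermal levels was not tested.

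BDE-47 replicate 5 was the highest mouse for Krt77, Dmkn, Krt6a, Krt10, Lgals7, Calml3 and Sfn, and also for Krt78 (2.49) and Ovol1 (3.91), which are outside the members. Its loricrin was among the lowest, at 1.68, and its Krt1, at 2.44, was the median of its group.

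Other marker lists were also read. Of all genes above 1 CPM in any mouse, 49.3% had a higher mean with BDE-47, and 48.2% without the 3 mice. Of 6 myoepithelial and smooth muscle genes, 2 had a higher mean with BDE-47 and 4 a lower one. The log2 difference of Oxtr was 1.45 (exact permutation p = 0.253), or 0.46 without the 3 mice with B cell or muscle markers, and that of Myh11 was -1.28 (exact permutation p = 0.25). Of 8 adipocyte genes, 7 had a higher mean with BDE-47 (median 0.52), but without the 3 mice 7 had a lower one (median -0.65). Pparg went from 1.41 (exact permutation p = 0.155) to 0.75, and Plin4 from 0.83 (exact permutation p = 0.428) to -0.24. All 10 skeletal muscle genes were higher on average with BDE-47, and 7 were without the 3 mice, where the median fell from 1.46 to 0.09. Acta1 went from 1.44 (exact permutation p = 0.38) to 0.12 and Myh4 from 1.71 (exact permutation p = 0.131) to 0.29. None of the 8 B cell genes passed the filter. All 8 had a lower mean with BDE-47, and without the 3 mice 3 did, by 0.55 or less on the log2 scale.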
